A study of Homo sapiens with 41 samples.

Results

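Later intron peaks of Elongin A are the CUT&RUN peaks whose summit, the base with the highest signal, lies in the second or a later intron of the longest protein-coding transcript of a gene. A peak was counted only if its summit was in no annotated exon and in no first intron of another coding gene, lay more than 1 kb from every protein-coding or lncRNA transcription start site (TSS), and lay outside the stretch from 100 bp upstream to 1000 bp downstream of every coding transcript end. This gave 2037 of the 8720 peaks in the goat antibody list, or 23.4% (Wilson 95% interval 22.5 to 24.3%). They lay in 1302 genes, and 27 of them lay in introns of more than one coding gene.

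The study mapped Elongin A in DLD1, an established human colon cancer cell line, in cells that received no siRNA. The goat antibody list was made from 2 CUT&RUN replicates with 1 goat IgG library as the control. A mouse antibody CUT&RUN list of 2338 peaks with its own mouse IgG control and a ChIP-seq list of 186 peaks with an input control come from the same untreated line, each from 1 antibody sample. Because the goat list holds 1 value per peak for both replicates together, no replicate error can be given, the depth is unknown, and the intervals below cover counting error across peaks only.

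Elongin A is the large subunit of Elongin, a complex that stimulates elongation by RNA polymerase II in vitro and that also serves in a ubiquitin ligase. CUT&RUN uses an antibody to bring a nuclease to the chromatin that carries the protein, and the DNA cut loose there is sequenced. Introns past the first are crossed by elongating polymerase, and they also hold many enhancers, distal regulatory elements that are often bound by AP-1, a dimer of FOS and JUN family proteins that is abundant in epithelial and tumour cells.

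The sequences of the strongest peaks show where the AP-1 word TGANTCA stood relative to the summit, which is the main pattern in the sequence of these regions. The first group holds the 4 strongest later intron peaks with the word in its form with C or G in the middle between 100 and 300 bp from the summit. Each stretch of 240 bases runs from the summit outwards, is given on the plus strand of hg19, and has the word in capitals. The RPL3 stretch (chr22:39712460-39712699), the SUSD1 stretch (chr9:114874958-114875197) and the PPP2R2B stretch (chr5:146417182-146417421) end at the summit, and the HMGA2 stretch (chr12:66280837-66281076) begins at it.
RPL3: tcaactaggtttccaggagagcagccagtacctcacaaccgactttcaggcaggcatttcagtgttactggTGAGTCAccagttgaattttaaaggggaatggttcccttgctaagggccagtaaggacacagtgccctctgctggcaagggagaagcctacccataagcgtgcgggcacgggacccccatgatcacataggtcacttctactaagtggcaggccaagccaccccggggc
SUSD1: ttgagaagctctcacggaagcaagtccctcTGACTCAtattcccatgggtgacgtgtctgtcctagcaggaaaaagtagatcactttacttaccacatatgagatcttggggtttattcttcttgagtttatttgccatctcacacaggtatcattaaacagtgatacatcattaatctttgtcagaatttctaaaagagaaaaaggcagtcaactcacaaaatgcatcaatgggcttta
PPP2R2B: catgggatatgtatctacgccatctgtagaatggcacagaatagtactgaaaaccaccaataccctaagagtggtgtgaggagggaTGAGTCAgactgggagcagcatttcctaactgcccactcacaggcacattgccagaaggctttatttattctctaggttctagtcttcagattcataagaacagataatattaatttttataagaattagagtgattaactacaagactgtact
HMGA2: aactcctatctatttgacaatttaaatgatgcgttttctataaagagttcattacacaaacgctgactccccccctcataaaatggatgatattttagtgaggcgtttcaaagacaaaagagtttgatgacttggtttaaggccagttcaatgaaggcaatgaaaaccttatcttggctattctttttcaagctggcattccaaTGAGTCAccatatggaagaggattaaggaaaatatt
The middle of the word lay 165 bp from the summit at RPL3, 206 bp at SUSD1, 150 bp at PPP2R2B and 207 bp at HMGA2. SUSD1 also had 1 AP-1 word within the 200 bp centred on its summit, on the side that is not printed. This group was chosen after the values were seen. The SUSD1 summit lay 48 bp from the next exon, so its stretch is not intron throughout.

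The second group holds the 3 strongest later intron peaks that overlapped a mouse antibody peak and had the word within the 200 bp centred on the summit. They lay in PPARD (chr6:35359214-35359413, plus strand), ARHGAP32 (chr11:128869548-128869747, plus strand) and CAPRIN1 (chr11:34097001-34097200, plus strand), with fold enrichments of 7.78, 6.37 and 6.22.
PPARD: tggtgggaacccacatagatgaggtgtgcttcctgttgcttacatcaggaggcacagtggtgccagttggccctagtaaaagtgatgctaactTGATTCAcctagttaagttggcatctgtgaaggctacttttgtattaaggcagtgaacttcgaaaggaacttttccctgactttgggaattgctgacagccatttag
ARHGAP32: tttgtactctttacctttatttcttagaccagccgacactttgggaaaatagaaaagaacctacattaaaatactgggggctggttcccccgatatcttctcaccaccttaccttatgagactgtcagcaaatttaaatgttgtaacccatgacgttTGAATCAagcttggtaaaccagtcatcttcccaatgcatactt
CAPRIN1: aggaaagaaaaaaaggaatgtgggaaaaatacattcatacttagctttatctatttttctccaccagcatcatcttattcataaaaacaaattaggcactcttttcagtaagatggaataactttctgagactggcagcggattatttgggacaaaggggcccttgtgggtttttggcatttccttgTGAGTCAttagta
Only PPARD, of these 3, had the word in the middle of the window. The third group holds the 2 strongest peaks with no AP-1 word within 300 bp of the summit, for contrast, in TEX14 (chr17:56708690-56708889, plus strand) and in ATF7 and its readthrough gene ATF7-NPFF (chr12:53932110-53932309, plus strand).
TEX14: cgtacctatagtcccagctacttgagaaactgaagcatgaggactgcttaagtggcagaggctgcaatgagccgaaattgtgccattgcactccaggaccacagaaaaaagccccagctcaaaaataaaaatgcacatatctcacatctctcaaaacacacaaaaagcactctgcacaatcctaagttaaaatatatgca
ATF7-NPFF: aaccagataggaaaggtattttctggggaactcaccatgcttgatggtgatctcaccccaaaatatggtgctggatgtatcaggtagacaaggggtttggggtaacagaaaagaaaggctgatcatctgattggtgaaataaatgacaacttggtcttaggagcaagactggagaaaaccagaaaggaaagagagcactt

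AP-1 words flanked the later intron summits and were not concentrated at them. Within 40 bp bins, the word reached 2.14 per kb of sequence at 180 bp on the left of the summit and 1.90 per kb at 180 bp on the right. At the summit itself the value was 0.331 per kb, close to the 0.349 per kb found over 600 bp away. Of the 2037 peaks, 899 (44.1%, 95% interval 42.0 to 46.3%) held a word between 100 and 300 bp from the summit on either side. In the same length of sequence between 700 and 900 bp from the same summits, 258 (12.7%) held one, a difference of 31.5 percentage points (Newcombe 95% interval 28.8 to 34.0). The word stood on the left at 501 peaks, on the right at 507 and on both sides at 109. Of the 1121 words counted there, 453 (40.4%) lay inside the called peak interval and the others outside it. These distances were chosen after the profile was seen.

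**Figure D1:**
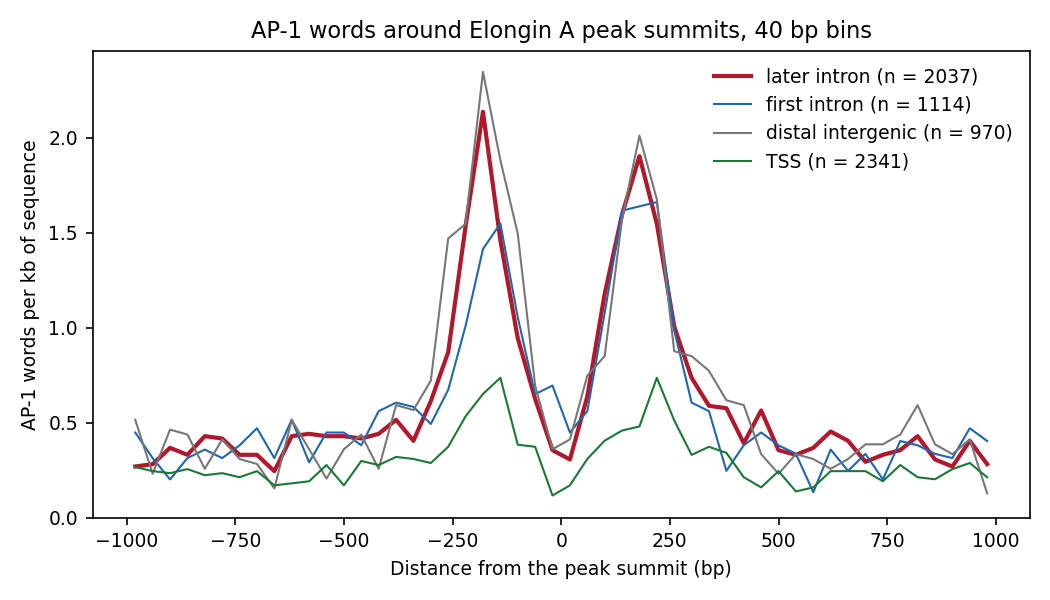
AP-1 words (TGANTCA, either strand) per kb of sequence in 40 bp bins against the distance from the peak summit in bp, for 4 classes of goat antibody peaks. The later intron line has a maximum at 180 bp on each side, 2.14 and 1.90 words per kb, and falls to 0.331 at the summit.

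The difference from other intron sequence depended on the width of the window. In 100 bp centred on the summit, 3.04% of later intron peaks and 3.02% of all windows tiling the later intron sequence in which a peak could lie held the word, a difference of 0.022 points (-0.640 to 0.861). In 200 bp, 208 peaks (10.2%) and 6.12% of 3894775 windows held it, a difference of 4.09 points (2.85 to 5.48). In 400 bp the shares were 35.8% and 11.99%, a difference of 23.8 points (21.7 to 25.9).

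The letters of the word mattered for the size of the excess. With C or G in the middle, the form that AP-1 is known to prefer, it stood between 100 and 300 bp from the summit at 34.0% of peaks and between 700 and 900 bp at 6.73%, and the words numbered 807 and 149, a ratio of 5.42 (4.55 to 6.45). With A or T in the middle it stood at 14.0% and 6.33%, with a ratio of words of 2.34 (1.91 to 2.87).

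Among the 17 words searched on both strands, AP-1 had the largest ratio, and the others ran from an excess beside the summit to fewer words there than far from it. RUNX (TGTGGTT), named for a family of intestinal and blood regulators, stood near 15.3% of summits against 7.61% at the far distance, a ratio of words of 2.03 (1.69 to 2.45). TEAD (CATTCCA), the DNA-binding partners of YAP, stood near 13.3% against 6.68%, a ratio of 2.15 (1.77 to 2.63). FOX (TGTTTAC) stood near 12.6% against 6.92%, and the word of GATA factors, AGATAAG, near 10.4% against 5.79%, with ratios of 1.87 (1.53 to 2.29) and 1.86 (1.495 to 2.32). The CDX word TTTATNG stood near 34.5% against 24.5%, and its ratio was 1.49 (1.35 to 1.65). The TCF/LEF word CTTTGAT stood near 9.18% against 6.28%, with a ratio of 1.51 (1.22 to 1.878). KLF (GGGTGTG) stood near 12.03% against 7.85%, with a ratio of 1.56 (1.28 to 1.89). The ETS word CCGGAAG was rare but stood near 1.52% of summits against 0.638%, a ratio of 2.29 (1.22 to 4.28) from 32 and 14 words. The E-box CACGTG stood near 5.89% against 4.57%, a difference of 1.33 points whose interval includes 0 (-0.0447 to 2.71), with a ratio of words of 1.32 (1.01 to 1.72), and in the 200 bp centred on the summit it was rarer than in all later intron windows, 1.18% against 1.84% (difference -0.662 points, -1.05 to -0.0933). KLF/SP (GGGCGG), a word of CpG-rich promoters, did not differ beyond its interval between the near and far stretches, with a ratio of 1.07 (0.871 to 1.30). Nor did the HNF1 word GTTAATNAT, near 1.91% against 1.47%, with a ratio of 1.33 (0.831 to 2.14). The words of HNF4, CREB and GRHL stood near fewer than 1% of summits, with ratios of 1.23 (0.592 to 2.56), 1.40 (0.444 to 4.41) and 1.75 (0.512 to 5.98). CTCF and YY1 words were fewer near the summit, at 0.540% against 0.785% and 0.0982% against 0.344%, with ratios of 0.647 (0.303 to 1.38) and 0.286 (0.0594 to 1.38), both with intervals that include 1. In the 200 bp centred on the summit, more words than AP-1 exceeded all later intron windows. The differences were 1.71 points (0.884 to 2.71) for GATA, 1.40 (0.578 to 2.40) for FOX and 1.25 (0.424 to 2.25) for KLF. For TEAD, KLF/SP and HNF4 they were 1.17 (0.318 to 2.18), 0.841 (0.139 to 1.72) and 0.252 (0.0284 to 0.663). Apart from the E-box, the intervals of the remaining words included 0.

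**Figure D2:**
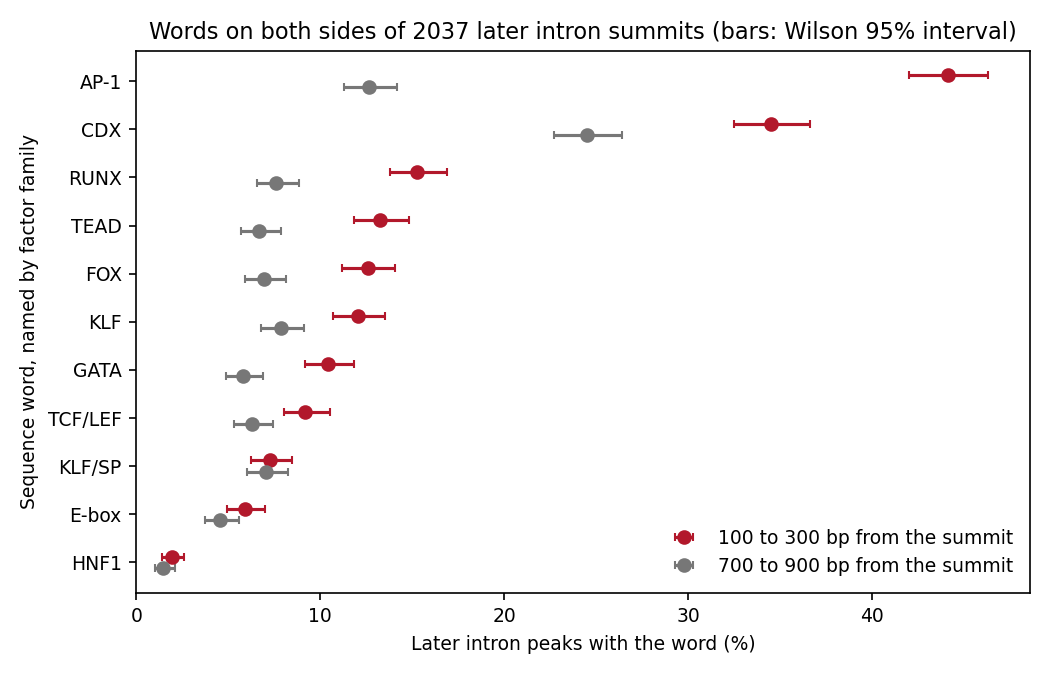
Share of the 2037 later intron peaks (%) with each sequence word in the 2 stretches 100 to 300 bp from the summit (red) and in the 2 stretches 700 to 900 bp from it (grey), with Wilson 95% intervals, for words held by at least 1% of the far stretches. AP-1 has the widest gap, 44.1% against 12.7%, and the intervals of the difference for KLF/SP, HNF1 and the E-box include 0.

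The flanking AP-1 words were not particular to later introns. They stood between 100 and 300 bp from 42.1% of the 1114 first intron summits, and the difference of 2.03 points from the later intron share had an interval from -1.59 to 5.63. The share at the 970 distal intergenic summits, more than 10 kb from any coding or lncRNA gene, was 48.8%, and the later intron share lay 4.63 points under it (interval of the difference -8.43 to -0.820). Exonic peaks had 31.3% and TSS peaks 17.3%, which were lower than the later intron share by 12.8 points (7.72 to 17.7) and 26.8 points (24.2 to 29.5). Base composition was alike in the intron and intergenic sets and higher in GC at TSS peaks. The median GC content of the 200 bp at later intron summits was 41%, against 40% in all later intron windows, 42% in first intron, 41% in distal intergenic and 53% in TSS peaks. The mean number of CpG in these windows was 1.97 at later intron summits and 8.48 at TSS peaks, and the part of base composition in the difference from TSS peaks was not tested.

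Among later intron peaks, the share with a flanking AP-1 word changed with the distance from the TSS of the host transcript. It was 28.6% (24.4 to 33.3%) at the 395 peaks under 20 kb from it, 47.4% (44.1 to 50.8%) at the 852 peaks between 20 and 100 kb, and 48.4% (44.9 to 51.8%) at the 790 peaks farther away. In hosts with a promoter peak it was 36.4%, and in hosts without one 46.2%, a difference of -9.80 points (-14.8 to -4.59). In genes with 5 or more later intron peaks it was 38.3%, and in genes with a single one 46.0%, a difference of -7.69 points (-13.8 to -1.40). These splits were not separated from distance. Hosts with a promoter peak had 30, 36 and 64 of their 443 pairs of peak and gene at 1 to 5, 5 to 10 and 10 to 20 kb. The other hosts had 59, 65 and 146 of 1621. When the peaks were split at the quartiles of fold enrichment, the strongest and the weakest group did not differ beyond their interval, with 47.5% and 43.4% (difference 4.098 points, -1.99 to 10.1).

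In strength, later intron peaks were close to the other peaks away from promoters. Their fold enrichment, the pileup at the summit over the IgG background as the peak caller gives it, was 2.19 at the lowest and 20.3 at the highest, and its median was 4.32 with quartiles of 3.61 and 5.17. The median was 4.17 in first introns, 4.31 at distal intergenic peaks, 4.49 in exons and 4.35 at TSSs. The mean on the log2 scale was 2.12 (SD 0.39 across peaks), 0.027 above first intron peaks (interval of the difference -0.0015 to 0.056) and 0.02 above distal intergenic peaks (-0.01 to 0.05), neither beyond the interval. Against exonic peaks it was lower, by -0.09 (-0.14 to -0.05). A fold enrichment of at least 5 was reached by 572 later intron peaks (28.1%), beside 30.1% of the whole list.

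The values were coarse. Of the 2037 peaks, 1851 (90.9%) shared both their fold enrichment and their q-value exactly with another peak of the list, and the most common pair, a fold enrichment of 3.47, stood at 26 later intron peaks. Small differences in rank between single peaks therefore carry little information. The median width was 370 bp with quartiles of 258 and 541 bp, and 78 peaks (3.83%) were at least 1 kb wide, against 4.51% of the whole list. That share was higher than at distal intergenic peaks by 1.66 points (0.315 to 2.85) and lower than in exons by 4.97 points (interval of the difference -8.20 to -2.42). Only 104 peaks (5.11%) reached an exon of a chosen coding transcript.

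Few later intron peaks were shared with the other lists. Of the 2037, 137 (6.73%, 5.72 to 7.90%) overlapped a mouse antibody peak by at least 1 bp, beside 8.33% of the whole goat list. The share was 8.08% in first introns and 8.04% at distal intergenic peaks, and the differences of -1.35 points (-3.37 to 0.518) and -1.32 points (-3.45 to 0.627) were not beyond their intervals. Restricting all classes to a q-value under 0.001 took both intervals below 0, with differences of -2.74 (-5.29 to -0.391) and -2.52 points (-5.20 to -0.102). At a fold enrichment of at least 5 the differences were positive, 1.09 (-2.70 to 4.38) and 0.868 points (-3.12 to 4.24), with intervals that include 0. The overlap rose with width, from 3.74% (2.35 to 5.91%) of the 454 peaks under 250 bp to 26.9% (18.3 to 37.7%) of the 78 peaks of 1 kb or more. In the same bins it was 2.99% and 21.6% (11.4 to 37.2%) in first introns and 7.85% and 28.6% (13.8 to 50.0%) at distal intergenic peaks. A high share among wide peaks was thus not particular to later introns. A wider peak offers more bases for an overlap by position. When summits had to lie within 500 bp of each other, the shares were 20.5% for the wide and 6.33% for the narrower peaks. The wide peaks also had a higher median fold enrichment, 5.35 against 4.32 in all later intron peaks. Split at the quartiles of fold enrichment, from weakest to strongest, the overlap was 9.27%, 5.91%, 4.56% and 7.14%. The part of width or of strength in the overlap was not tested. From the other side, 438 of the 2338 mouse antibody peaks (18.7%) were later intron peaks by the same rule, and 134 of them (30.6%) overlapped a goat antibody peak.

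**Figure D3:**
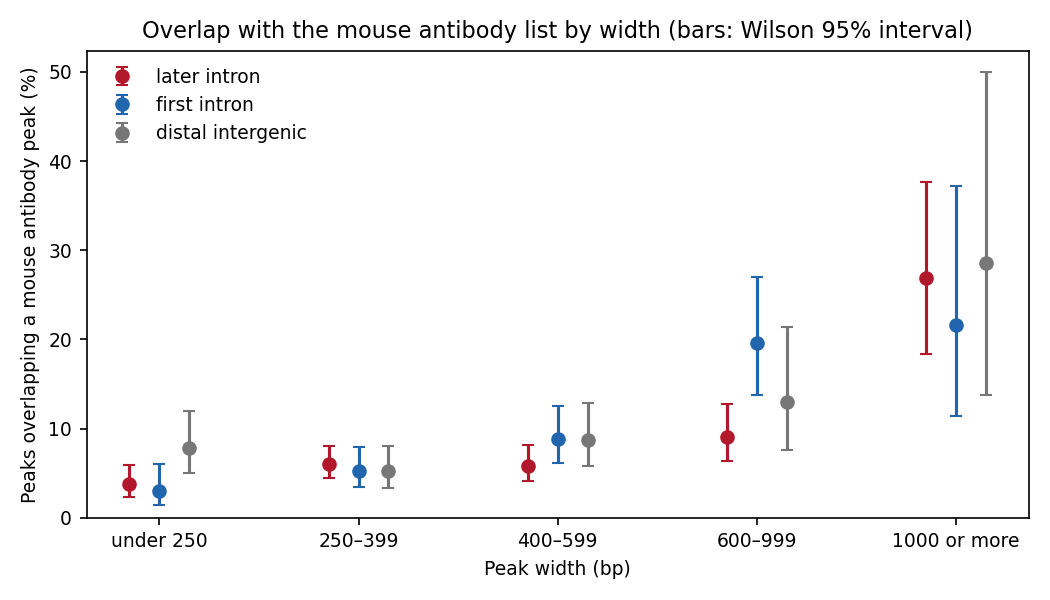
Share of goat antibody peaks (%) that overlap a mouse antibody peak by at least 1 bp, by peak width in bp, for later intron, first intron and distal intergenic peaks, with Wilson 95% intervals. The later intron share goes from 3.74% under 250 bp to 26.9% at 1 kb or more, where first intron and distal intergenic peaks have 21.6% and 28.6%.

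With the ChIP-seq list, 4 later intron peaks (0.196%, 0.076 to 0.504%) overlapped, beside 0.837% of the whole goat list. The first lay in intron 3 of HHAT, which encodes the Hedgehog acyltransferase (chr1:210545057-210548186). Its fold enrichment was 20.3 in the goat list, the seventh highest of all 8720, 7.13 in the mouse list and 7.32 in the ChIP-seq list. The second lay in intron 2 of TEX14, a gene of germ cell intercellular bridges (chr17:56708053-56709710), with 12.2, 8.65 and 28.2 in the same order. The third lay in intron 7 of ARMH1 (chr1:45185907-45188009), with 7.75, 4.72 and 9.14. The fourth, in intron 2 of MLXIPL, a glucose-responsive transcription factor (chr7:73027315-73027633), had 7.29 in the goat list and 7.57 in the ChIP-seq list and overlapped no mouse antibody peak. The intervals of the first 3 each covered an entry annotated as a small nuclear or nucleolar RNA: RNU5A-8P in HHAT, U3 in TEX14 and RNU5F-1 in ARMH1. RNU5A-8P is a pseudogene by its name. Their summits lay 237, 213 and 298 bp from these entries. U5 is part of the spliceosome and U3 guides the processing of ribosomal RNA precursors.

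Small RNA genes, counted with pseudogenes annotated under the same types, were rare near later intron summits in general. Only 12 peaks (0.589%, 0.337 to 1.03%) had one within 500 bp, against 0.628% in first introns and 0.412% at distal intergenic peaks. Besides the 3 above, they included the widest later intron peak, of 4965 bp, over RPS12, a ribosomal protein gene whose introns carry the snoRNA genes SNORD100 and SNORA33, with a fold enrichment of 8.62. Others lay beside SNORA69 in RPL39 (6.34), SNORA65 in RPL12 (5.35), SNORD119 in SNRPB (4.37) and SNORD18A in RPL4 (3.46). The remaining 4 peaks lay near miRNA, snRNA or other small RNA entries in PPP1R10 (7.32), FAXDC2 (5.19), GIGYF2 (4.34) and MCL1 (3.33). The entries in GIGYF2 and MCL1, RNU6-107P and RN7SL600P, are pseudogenes by their names.

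The remaining strongest peaks were mostly narrow and deep within long genes. ATF7, a bZIP transcription factor, had 11.8 in intron 4, 87.6 kb from the TSS of ATF7-NPFF. MTUS2, a microtubule-associated protein, had 10.99 in a 301 bp peak, 582 kb from its TSS, and PPP2R2B, a regulatory subunit of protein phosphatase 2A, had 9.77 in a 304 bp peak. RPL3, a protein of the large ribosomal subunit, differed from them: its peak of 2224 bp reached 3 exons, stood 2.93 kb from the TSS, had a fold enrichment of 10.9 and overlapped a mouse antibody peak of 5.27. SUSD1 had 10.8, ASAP1, a GTPase-activating protein of the ARF family, 10.1, ERC2, a presynaptic scaffold protein, 9.53, and HMGA2, an architectural chromatin protein, 9.48. Of the 10 strongest, HHAT, TEX14 and RPL3 overlapped a mouse antibody peak.

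Later intron peaks were denser in genes that also had a promoter peak. The later introns eligible under the rule summed to 811 Mb over 16312 coding genes, and 1302 of these genes (7.98%) held a peak, or 2.54 peaks per Mb. Of the 1696 genes with a goat antibody peak summit within 1 kb of a coding TSS, 210 (12.4%) held a later intron peak, against 1092 of the other 14616 (7.47%), a difference of 4.91 points (3.36 to 6.62). The density was 6.48 per Mb (5.89 to 7.11) in the first group and 2.18 per Mb (2.08 to 2.29) in the second, a ratio of 2.97 (2.67 to 3.30). The median spans of the genes in the groups were 31.7 and 33.6 kb. Both counts come from the same list, so promoter and intron peaks share their libraries and depth. No expression values were used here, and how far transcription moves with either count was not tested.

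In both groups the density was highest within 5 kb of the TSS and lowest beyond 200 kb. In genes with a promoter peak it went from 21.9 per Mb between 1 and 5 kb to 12.8 between 5 and 10 kb, 7.07 between 20 and 50 kb and 3.73 beyond 200 kb. In genes without one it was 4.49 per Mb in the nearest bin, between 2.34 and 2.88 in the 5 bins from 5 to 200 kb, and 1.32 beyond. The ratio between the groups was 4.88 (3.14 to 7.57) in the nearest bin, 2.08 (1.61 to 2.69) between 100 and 200 kb and 2.83 (2.14 to 3.75) beyond, and its interval lay above 1 in all 7 bins. By intron order, the density was 3.30 per Mb (3.04 to 3.58) in intron 2 and 1.90 (1.72 to 2.11) in intron 11 and later. By intron length it was highest between 20 and 50 kb, with 3.20 per Mb (2.92 to 3.49), and lowest in introns over 100 kb, with 1.73 (1.54 to 1.93). Within introns the peaks were spread like the sequence itself. Upstream of the middle of the intron lay 49.8% of peaks and 49.4% of sequence, and 11.1% of peaks lay within 500 bp of an exon, against 11.7% of sequence (interval of the peaks' share 9.81 to 12.5%).

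**Figure D4:**
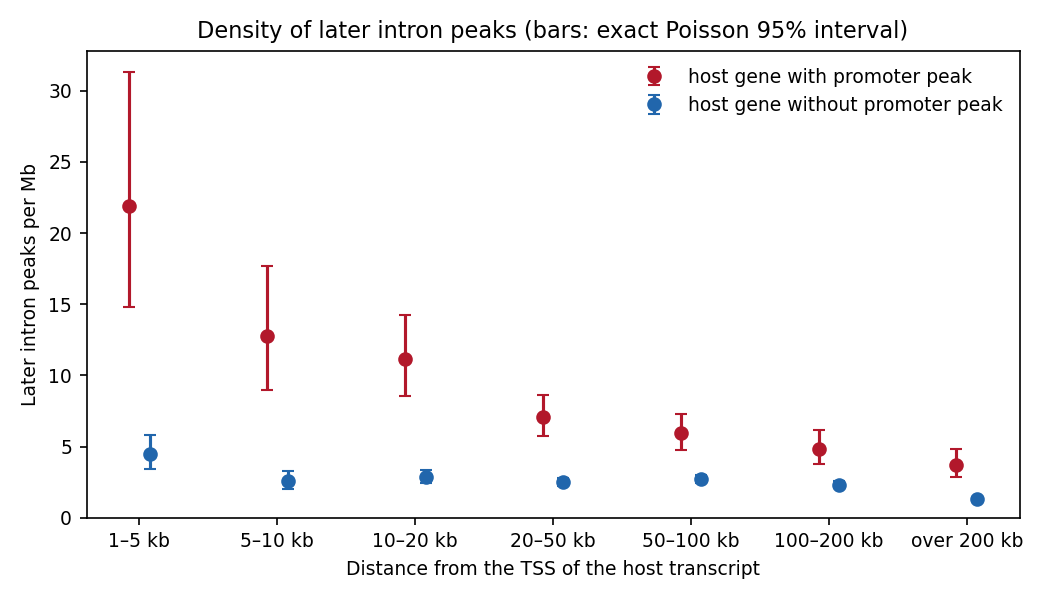
Later intron peaks per Mb of eligible later intron sequence against the distance from the TSS of the host transcript, for host genes with (red) and without (blue) a promoter peak, with exact Poisson 95% intervals. The red points lie above the blue ones in all 7 bins, 21.9 against 4.49 per Mb in the nearest and 3.73 against 1.32 in the farthest.

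Between chromosomes, X stood apart. It held 17 later intron peaks, 0.517 per Mb, against 2.65 per Mb on the autosomes, a ratio of 0.195 (0.121 to 0.314). The same ratio was 0.145 for first intron, 0.232 for distal intergenic and 0.467 for TSS peaks, so a lower density on X was shared by the classes. Among autosomes the density ran from 2.099 per Mb on chromosome 15 to 4.39 per Mb on chromosome 17.

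A small number of genes held many later intron peaks. One peak was found in 913 host genes, 2 in 234 and 3 or more in 155. FAT1, which encodes an atypical cadherin, held 32, the most of any gene. They stood 18.2 to 116 kb from its TSS (chr4:187508948-187645010, minus strand), with 21 of them in intron 2, and with a median gap of 1.81 kb between summits. Their fold enrichments lay between 2.72 and 9.16 (median 4.37), 7 were at least 1 kb wide, and 4 overlapped a mouse antibody peak. AP-1 words lay between 100 and 300 bp from 9 of the 32 summits, beside 899 of all 2037 later intron summits (44.1%). FAT1 supplied 32 of the 443 pairs of a peak and a host gene with a promoter peak, and without it the density ratio above was 2.76 (2.48 to 3.07).

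Other genes had clusters within 1 or 2 introns. MLLT3, a subunit of the super elongation complex, held 12, with 11 in intron 2 and fold enrichments of 2.60 to 5.57. SPTBN1, a spectrin of the membrane skeleton, held 11, all in intron 2 between 112 and 141 kb from the TSS. RNF43, a ubiquitin ligase that removes WNT receptors from the cell surface, held 10, all in intron 2 between 11.6 and 38.1 kb from the TSS, with values of 2.88 to 6.04. AXIN2, a negative regulator of WNT signalling, held 8 in 6 introns, and its strongest, of 2684 bp, had 8.48. Per 100 kb of eligible sequence AXIN2 and FAT1 were alike, with 32.2 and 31.8 peaks, against 18.6 in RNF43. RUNX2, SKAP1, TGFBR2 and THSD4 also held 8 each, as did VTI1A.

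**Figure D5:**
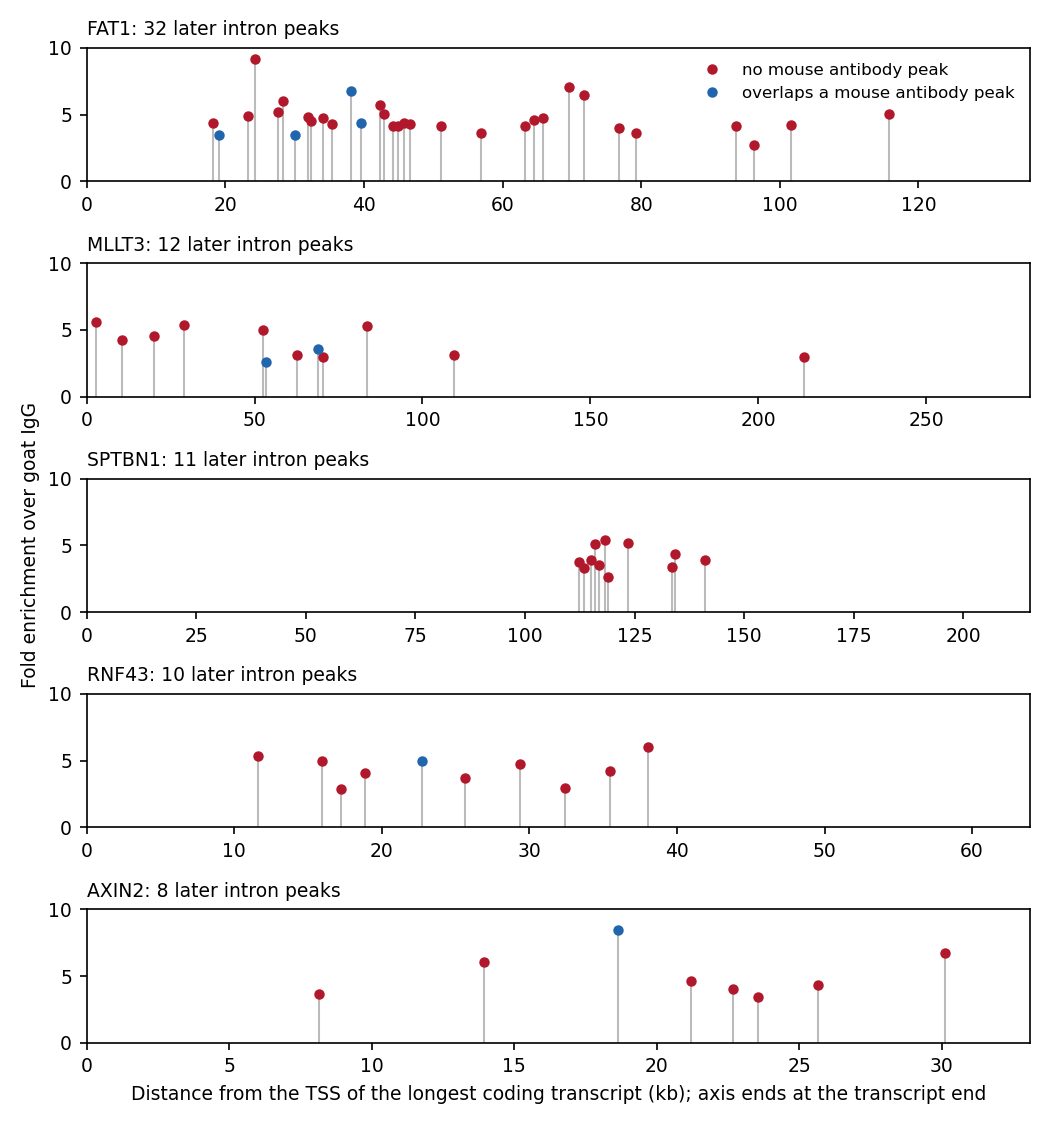
Later intron peaks along 5 of the genes with the most such peaks; each point is a peak, with its distance from the TSS in kb and its fold enrichment over goat IgG, in blue where it overlaps a mouse antibody peak. FAT1 holds 32 peaks from 18.2 to 116 kb, SPTBN1 holds 11 between 112 and 141 kb, and 4 of those in FAT1 overlap a mouse antibody peak.

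Gene lists chosen for an intestinal tumour line and for Elongin A gave different densities. They were chosen with earlier results of these data known, so their densities are descriptive. The intervals of the list densities treat peaks as independent, so they are too narrow where a few genes hold many of the peaks. Of 37 WNT signalling genes with eligible sequence, 12 (32.4%) held 37 peaks, 15.2 per Mb (10.7 to 21.0), beside 7.98% of all genes and 2.54 per Mb. They were led by AXIN2, TCF7L2, the main TCF factor of the intestine, with 6 peaks of up to 7.23, RNF43, and ZNRF3, the paralogue of RNF43, with 2 of up to 5.29. RNF43 and AXIN2 together held 18 of the 37 peaks, and without them the density was 8.09 per Mb (4.87 to 12.6). Of 31 genes of intestinal and AP-1 transcription factors, 13 (41.9%) held 40 peaks, 11.8 per Mb (8.45 to 16.1). KLF5 held 4 of up to 7.97, GATA6 5 of up to 7.70, RUNX1 6 of up to 6.94 and FOXP1 2 of up to 6.35. Of 29 TGF-beta and BMP signalling genes, 6 (20.7%) held 24 peaks, 11.8 per Mb (7.56 to 17.6). The inhibitor SMAD7 had 4 of up to 6.98, the receptors TGFBR2 and BMPR1B 8 of up to 5.62 and 6 of up to 5.38, and the co-receptor TGFBR3 4 of up to 3.89. TGFBR2 and BMPR1B held 14 of the 24, and without them the density was 5.87 per Mb (2.82 to 10.8).

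Splicing and mRNA processing genes are short, and 8 of 37 (21.6%) held 12 peaks in only 0.432 Mb, 27.8 per Mb (14.4 to 48.6). Over all genes the values were 7.98% and 2.54 per Mb. U2AF2, which recognizes the 3' splice site, had 1 of 7.83, RBM39, a splicing cofactor, 3 of up to 6.54, PTBP1, a repressor of exons, 2 of up to 5.26, and the SR protein SRSF3 2 of up to 4.71. Without RBM39 and PTBP1 the density was 17.3 per Mb (6.94 to 35.6). Of these 37 genes, 18 also had a promoter peak, the most of the lists. For epithelial junctions and adhesion, 10 of 36 genes (27.8%) held 14 peaks, 5.85 per Mb (3.20 to 9.82), among them CTNND1 (5.65), PARD3 (5.40), TJP1 (5.22) and CTNNA1 (5.19), each with 1. CDH1 and LAMB3 together held 5 of the 14, and without them the density was 3.96 per Mb (1.81 to 7.51). That interval includes the 2.54 per Mb of all genes. For receptor tyrosine kinases, 8 of 40 (20%) held 13 peaks, 3.20 per Mb (1.70 to 5.47), led by MERTK (up to 5.32), EPHA2 (up to 4.74), ALK (up to 4.15) and EPHB2 (4.07). The interval of this density includes the 2.54 per Mb of all genes. The very long genes at common fragile sites were at the other end. Although 13 of 39 (33.3%) held a peak, there were 22 peaks in 43.3 Mb, or 0.508 per Mb (0.318 to 0.769). CDH13 (6.74), MACROD2 (5.78) and TENM3 (5.68) had 1 each and LPP 2 of up to 5.48. PDE4D held 7 of the 22, and without it and LPP the density was 0.313 per Mb (0.167 to 0.536). The lists also differed in gene length, with median spans from 24.9 kb in the splicing list to 1174 kb in the fragile site list, and in genes with a promoter peak. The density over all genes fell with distance from the TSS, from 6.14 to 1.46 per Mb between the nearest and the farthest bin, so neither the share of genes held nor the density compares the lists at equal gene length, and the part of length in these differences was not tested.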

How the data were processed

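DLD1 cells were profiled by CUT&RUN with a goat antibody to Elongin A (2 replicates, 1 goat IgG control), by CUT&RUN with a mouse antibody, and by ChIP-seq. Per the methods, the authors mapped read pairs on hg19 (Bowtie2), dropped PCR duplicates (Picard) and called peaks with MACS2 at default settings. For CUT&RUN they fixed the cells with formaldehyde. The deposited peak lists give a fold enrichment (a linear ratio over control), the −log10 p-value, the −log10 q-value and an integer score, of which the fold enrichment and the q-value were used. How the 2 goat replicates were combined is not given in the sources used here.

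Each summit was classed in this order with the GRCh37 version of GENCODE release 44 (GRCh37 is the build of hg19): TSS, coding transcript end, exon, first intron, later intron, distal intergenic, other. The longest coding transcript was taken as the one with the longest genomic span. Overlaps needed 1 bp. Densities were divided by the later intron sequence in which a summit could lie, summed per gene. Sequence was read from GRCh37, and words were counted on both strands in 200 bp around each summit. They were also counted by the distance of their middle base from the summit, up to 1000 bp away. The near and far shares and the ratios of words come from 100 to 300 bp and 700 to 900 bp. Shares have Wilson, differences of shares Newcombe, and rates Poisson 95% intervals, and differences of means have intervals from standard errors across peaks. No p-values were computed, since peaks of 1 list are not replicates of a condition. The text names the 10 strongest later intron peaks, the 10 genes with the most of them (ties in alphabetical order), those shared with the other lists, and up to 4 genes from each of 7 gene lists. Genes left out of a list density are named as well. 1 gene that the rule names is not reported here. Sequences from chromosome 8 are not printed. Members and lists were chosen with earlier results of these data known. Scripts were tested on simulated data.

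Analyses used Python 3.11.15, numpy 2.4.6, scipy 1.17.1, pandas 2.3.3, pysam 0.24.0 and samtools 1.23.1. Alternatives were stricter q-values (0.01 and 0.001), a fold enrichment of at least 5, other transcript, exon and TSS rules, peak centres, unique summit sequences, other overlap rules and other windows. Another kept chromosomes 1 to 22 and X only. It could not change the later intron peaks, since none lay on chromosome Y.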

Additional observations from a re-analysis of the deposited data

How the results depend on the processing

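Of 111 alternatives, 101 kept the side of the interval or, for counts and shares, stayed near the value given. The direction was not kept in all of these. At a fold enrichment of at least 5, the differences in the share overlapping a mouse antibody peak turned positive. They were 1.09 points (-2.70 to 4.38) against first intron and 0.868 points (-3.12 to 4.24) against distal intergenic peaks. Both intervals include 0, as in the main setting. The number of later intron peaks fell to 572 at a fold enrichment of at least 5, and the share overlapping a ChIP-seq peak was then 0.699%. At a q-value under 0.001, the difference in the share overlapping a mouse antibody peak was -2.74 points against first intron and -2.52 points against distal intergenic peaks, both beyond their intervals. The difference in mean log2 fold enrichment from first intron peaks was 0.041 (0.0107 to 0.0705) with the longest spliced transcript. With exons of coding transcripts only it was 0.028 (0.00024 to 0.0568). Both intervals lie above 0, the second only just. The AP-1 difference was 0.022 points in windows of 100 bp, where the words are counted closest to the summit. The contrast of 100 to 300 bp with 700 to 900 bp, 31.5 points, was counted among its alternatives. That contrast is another measure, since it compares distances from the same summits and not peaks with all windows. The density ratio ran from 2.66 to 3.82 over its 11 alternatives, with its interval above 1 in each. The densities of the WNT, TGF-beta and fragile site lists moved outside their intervals without the pair of genes named beside them. The cause of these shifts was not tested.

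No paired analysis was possible because the goat antibody list holds 1 value per peak for both replicates, so neither replicate was left out either. The depth of the libraries is unknown. The distances of 100 to 300 bp and 700 to 900 bp and the values without FAT1 or without the 2 genes of a list with the most peaks were chosen after the data were seen.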
